A study of Mus musculus with 24 samples.

Results

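The regions described here are the open chromatin peaks assigned to 30 genes of glutamate receptors and their auxiliary subunits, measured in neuronal nuclei of the mouse striatum. A peak belongs to a gene when the deposited table gives that gene's symbol for it, which is the gene with the nearest annotated transcription start. The 30 genes held 780 of the 147020 deposited peaks, and 775 of these had enough counts to be tested. The other 5 peaks lay by Gria3, Grm3, Grm7 (2 peaks) and Shisa9.

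Accessibility was measured by ATAC-seq, in which the Tn5 transposase inserts sequencing adapters into DNA that is not tightly packed. All 24 C57BL/6 mice were 12 months old, and 50000 NeuN-positive nuclei were sorted from the striatum of each (NeuN marks most neurons). There were 3 females and 3 males in each of 4 genotypes. WT animals carried neither allele. Q140 animals were heterozygous for a knock-in of an expanded CAG repeat in Htt, the huntingtin gene, a mouse model of Huntington's disease. Msh3KO animals lacked Msh3 (Msh3-/-), a DNA mismatch repair gene needed for somatic growth of CAG repeats, and had no expanded Htt allele. Q140_Msh3KO animals carried the heterozygous Q140 allele and lacked Msh3. Which part of Msh3 was deleted, and whether libraries of a genotype came from separate litters, the labels do not say, so p-values measure the spread between these samples. Libraries are named by sex and number, as in Q140 F2. Counts came from whole pools of NeuN-positive nuclei, so fewer nuclei of one neuron type and less accessibility per nucleus cannot be told apart.

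Glutamate is the main excitatory transmitter of the brain, and the spiny projection neurons that make up most of the striatum receive it from cortex and thalamus. AMPA, kainate and NMDA receptors are ion channels opened by glutamate, whereas the metabotropic receptors signal through G proteins. Auxiliary proteins of the Neto, cornichon and Shisa families bind the channels and alter their trafficking and gating. Overactivation of NMDA receptors has long been studied in models of Huntington's disease.

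The RefSeq promoter table of build GRCm38.p6, the build family of the peaks, held 18 of the 30 members by symbol, in 22 windows, and 15 of those windows lay under a member peak (13 genes). The 250 bases before an annotated start are printed for 3 of these genes. Each printed window overlaps the annotated extent of its gene, so it need not precede the outermost start. Grm7 has another window, which is not printed. Grm7 and Grik2 are shown because they held the most peaks that changed, and Gria2 because its promoter was bright and holds a rare motif. They read 5′ to 3′ on the strand of the gene.
Gria2, chr3:80802836-80803085, minus strand: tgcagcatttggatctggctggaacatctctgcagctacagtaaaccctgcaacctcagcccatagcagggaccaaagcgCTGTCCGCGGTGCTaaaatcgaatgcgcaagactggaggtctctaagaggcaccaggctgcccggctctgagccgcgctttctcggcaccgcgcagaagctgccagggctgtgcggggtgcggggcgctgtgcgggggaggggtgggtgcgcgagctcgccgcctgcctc
Grik2, chr10:49788755-49789004, minus strand: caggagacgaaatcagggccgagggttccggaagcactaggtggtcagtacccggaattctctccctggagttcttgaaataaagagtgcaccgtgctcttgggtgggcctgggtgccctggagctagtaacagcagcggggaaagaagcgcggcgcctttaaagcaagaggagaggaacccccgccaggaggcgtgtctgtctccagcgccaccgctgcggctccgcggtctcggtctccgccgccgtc
Grm7, chr6:110645262-110645511, plus strand: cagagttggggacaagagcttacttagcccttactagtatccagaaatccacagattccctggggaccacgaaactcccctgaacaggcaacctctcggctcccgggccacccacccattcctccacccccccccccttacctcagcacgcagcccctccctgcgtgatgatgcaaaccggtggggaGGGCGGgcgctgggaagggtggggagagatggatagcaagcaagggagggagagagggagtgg
Capitals in Gria2 mark the spaced core of RE1, the element bound by the repressor REST. The letters searched were AGCACC and GGACAG with 2 bases of any kind between them, on both strands. In Gria2 the match is on the opposite strand and starts 170 bases before the start. It was the only one among the 18 members, and 0.0457% of all 32851 promoter windows held a match. Capitals in Grm7 mark a GC box, searched as GGGCGG on both strands, which begins 63 bases before the start. A GC box stood in 11 of the 18 members and in 32.7% of all windows. Grik2 held neither. The median GC content of the member windows was 63.8%, against 52.4% in all windows. These are matches of letters and were not tested as binding sites.

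At the gene starts, accessibility passed the test between Q140 and WT at 1 of 26 genes. Of all peaks within 1 kb of a start 3.33% passed, so this count is near the background. A peak annotated as promoter was present for 14 members, another 12 had a peak within 1 kb of an annotated start, and Grin2a, Grm4, Neto2 and Shisa9 had neither. Levels are given in CPM, the count relative to the total of the library after TMM scaling. At the start of Gria2, which codes for the subunit that sets the calcium permeability of AMPA receptors, WT libraries held 26.5 to 41.6 CPM (median 30.6) and Q140 libraries 21.9 to 38.0 (mean 30.7, WT mean 32.2). At the start of Grm7, a presynaptic receptor, WT libraries held 36.1 to 49.0 CPM (median 40.1) and Q140 libraries 33.0 to 44.7 (median 36.0). At the start of Grik2, a kainate channel subunit, the values were 17.6 to 23.7 (median 20.4) and 19.3 to 25.5 (median 21.1). The genotypes overlapped at all 3 starts, whose upstream bases are printed above. The log2 fold changes in Q140 were -0.07 (95% interval -0.33 to 0.19) for Gria2, -0.14 (-0.37 to 0.09) for Grm7 and 0.09 (-0.14 to 0.33) for Grik2.

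Per length, the start peak of Gria2 was the brightest in WT at 42.3 CPM per kb, followed by Cnih2 and Shisa7 at 27.2 each, Grin2b at 26.7, Grm7 at 25.2 and Grin1 at 24.9. Grm6, a receptor known from the retina, was lowest at 3.61 CPM per kb. The median over all promoter peaks of the table was 16.2 CPM per kb in all libraries. The X-linked Gria3 promoter had a log2 fold change of -0.28 (-0.54 to -0.02) and did not pass the adjusted test (adjusted p 0.19). The one start peak that passed was at Grin2d, a slow NMDA subunit. It lies in an exon 440 bases from an annotated start (chr7:45866032-45866450) and is the sole peak of that gene. WT libraries held 2.17 to 5.21 CPM (median 3.26) and Q140 libraries 4.96 to 6.46 (median 5.31). The ranges overlapped by 1 WT library, M3, at 5.21. It gave a log2 fold change of 0.62 ± 0.20 (SE, adjusted p 0.0376), and it was no longer past the threshold without any one of 6 libraries (WT F2, WT F3, WT M1, WT M2, Q140 F2 or Q140 M1, adjusted p 0.0527 to 0.104). With no filter on low counts it missed as well (adjusted p 0.0507). The same held without both Q140 F2 and Q140_Msh3KO M1 (adjusted p 0.0573).

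**Figure D1:**
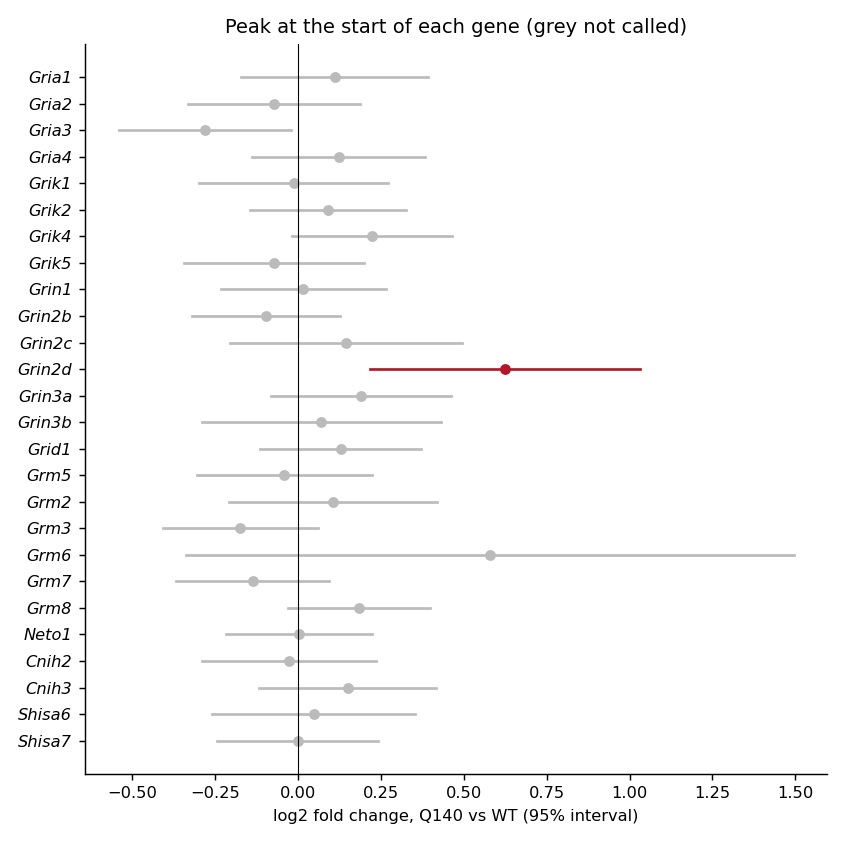
Log2 fold change of accessibility (x axis) in Q140 against WT at the start peak of each of 26 members (y axis). The start peak is the annotated promoter peak of highest mean CPM or, where there is none, the brightest peak within 1 kb of a start. Points are estimates and lines are 95% intervals (6 libraries per genotype). Only Grin2d, drawn in red at 0.62, passed the adjusted test, and the widest interval is that of Grm6, from -0.34 to 1.49.

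Over peaks at any distance, Q140 animals differed from WT at 92 of the 775 tested member peaks, 29 higher and 63 lower. This is 11.9% of member peaks, against 10.3% of all 146155 tested peaks. A peak was called when its edgeR quasi-likelihood p-value, adjusted over all tested peaks, was under 0.05. Member peaks were called higher in 3.74% of cases (4.20% of all peaks) and lower in 8.13% (6.11% of all peaks). Lower peaks made up 68.5% of the called members and 59.2% of all called peaks. The median log2 fold change was -0.07 over member peaks and -0.01 over all. Without WT F3 the split was 34 higher and 37 lower, and with scaling by total counts it was 39 higher and 55 lower. Of all called peaks, 51.6% were lower under that scaling and 49.4% without WT F3. Groups did not overlap at 39 of the 92 called peaks (42.4%), and at 44.6% of all called peaks.

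Called peaks were found at 20 of the 30 genes (66.7%), against 36.5% of all genes, but members had a median of 12 tested peaks and all genes 4. By number of tested peaks, called peaks stood at 9 of 9 members with 30 or more (96.8% of all such genes), 5 of 8 with 10 to 29 (75.8%) and 6 of 13 with 1 to 9 (25.2%). At 9 genes they went both ways, at 10 they were lower only, and Grin2d had its single higher peak. Grik1, Grin1, Grin2c, Grid1, Grm2, Grm4, Grm6, Cnih2, Cnih3 and Shisa7 had none. Grin1, the obligatory NMDA subunit, had 3 tested peaks with log2 fold changes between -0.06 and 0.11. Grid1, the delta receptor of the list, had 10 tested peaks between -0.13 and 0.38.

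**Figure D2:**
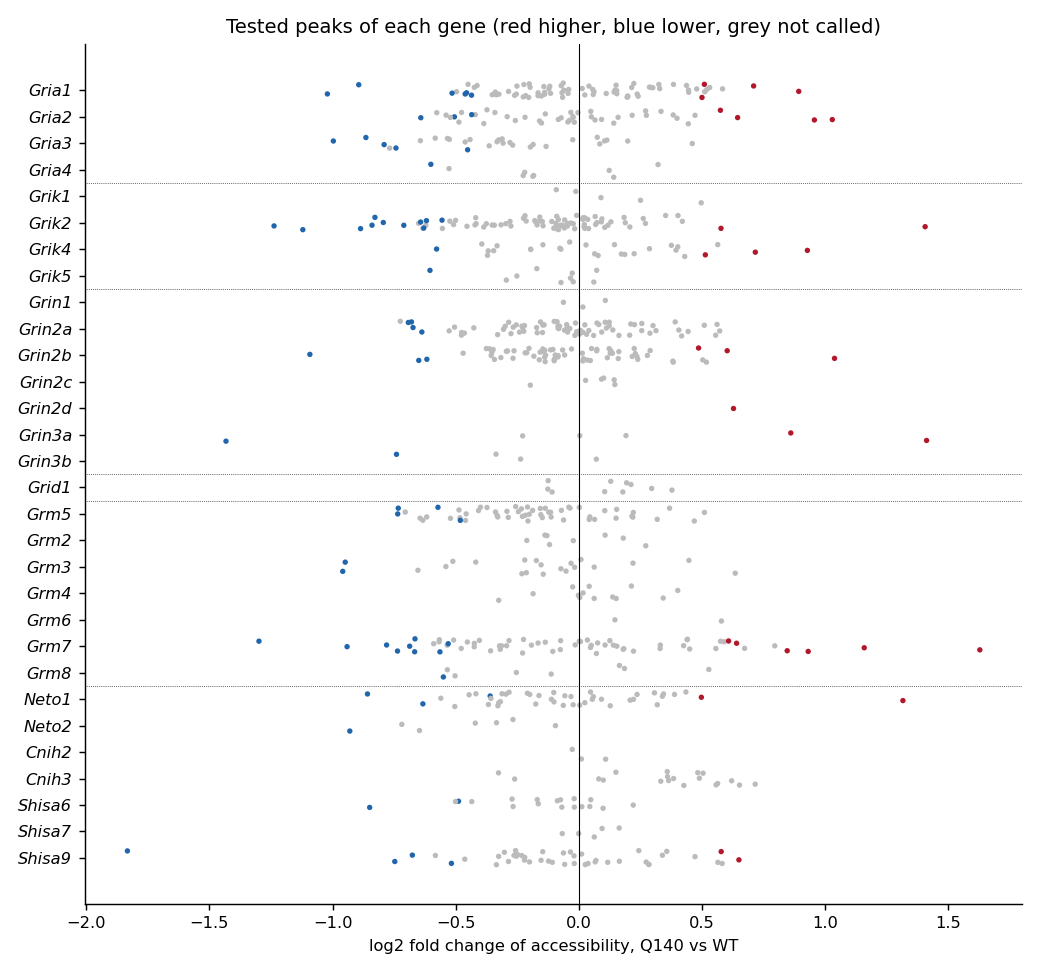
Log2 fold change of accessibility in Q140 against WT (x axis) for each of the 775 tested peaks, in rows by gene (y axis), with dotted lines between receptor classes. Red and blue points are the 29 higher and 63 lower called peaks and grey points were not called. Grm7, Grik2, Gria1, Gria2, Grin2b and Shisa9 show called peaks on both sides of 0.

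Member peaks lay far from gene starts. Of those tested, 56.4% were over 100 kb from the nearest start, against 21.6% of all peaks, and their median distance was 127 kb against 28.8 kb. Of the 780 peaks, 528 overlapped the gene they are named for and 252 lay outside it. Among intergenic member peaks 16.9% were called (12.6% of all intergenic peaks), among intronic ones 9.96% (10.4%), and among the 18 annotated promoters 0 (3.33%). Of the member peaks over 100 kb away, 14.4% were called, against 13.8% of all such peaks. Within 1 kb of a start, 1 of 33 member peaks was called (3.03%), near the 3.33% of all such peaks.

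The AMPA receptor genes carried 23 of the called peaks, 8 higher and 15 lower of 160 tested, at all 4 members. Gria1, the main subunit moved to synapses in plasticity, had 4 higher and 6 lower. Its largest change was at chr11:56654065-56654478, which is intergenic and 357 kb upstream of its start. WT libraries held 2.94 to 3.96 CPM (median 3.69) and Q140 libraries 0.968 to 2.44 (median 1.87), without overlap. That is a log2 fold change of -1.02 ± 0.22 (SE, adjusted p 0.00137). A second intergenic peak 283 kb upstream, chr11:56728502-56729379, fell from 9.38 ± 1.68 to 5.06 ± 0.881 CPM (SD, n = 6 each; log2 fold change -0.89, adjusted p 3.54e-05).

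Gria2 had 4 higher and 3 lower peaks of 45 tested (15.6%). The 4 higher peaks all lay beyond its 3′ end, 141 to 225 kb from the start, while the 3 lower ones lay 28.3 to 127 kb from the start. At chr3:80661646-80662249 WT libraries held 3.22 to 5.70 CPM (median 4.59) and Q140 libraries 7.53 to 12.1 (median 8.73), without overlap. The log2 fold change was 1.03 ± 0.16 (SE, adjusted p 1.43e-05). A neighbouring peak, chr3:80608311-80608902, rose from 5.34 ± 0.734 to 10.4 ± 2.46 CPM (SD, n = 6 each; adjusted p 6.94e-05), although Q140 F1 at 5.91 lay within the WT range. The first lies 19.2 kb and the second 72.5 kb past the gene.

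Gria3 had 5 lower peaks and no higher one, of 29 tested (17.2%). The strongest in p, chrX:40740537-40741088, is intergenic and 660 kb upstream. WT libraries held 5.07 to 7.48 CPM (median 6.53) and Q140 libraries 3.30 to 4.53 (median 3.66), without overlap. This was a log2 fold change of -0.74 ± 0.15 (SE, adjusted p 0.000664). A fainter intronic peak, chrX:41618497-41618696, fell from 2.14 ± 0.517 to 1.07 ± 0.315 CPM (SD, n = 6 each; adjusted p 0.0151). Q140 F2 had a share of X counts near that of the males (1.47%, other females 1.72 to 1.94%, males 1.49 to 1.59%). It held 1 count in a set of Y genes, whereas each male library held 152 or more and no female library over 3. The cause of its X share was not tested. Because Gria3 is on the X chromosome, Q140 F2 was left out as well. The 2 changes were then -0.72 (adjusted p 0.00173) and -0.88 (adjusted p 0.0434), and the second was lost without both Q140 F2 and Q140_Msh3KO M1 (adjusted p 0.0584). Gria4 had 1 called peak in an intron (chr9:4686594-4687618), which fell from 8.37 ± 1.22 to 5.48 ± 0.809 CPM (SD, n = 6 each; adjusted p 0.00869).

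The kainate receptor genes had 5 higher and 13 lower peaks of 128 tested, most of them at Grik2 (2 higher, 11 lower of 85 tested, 15.3%). The lower Grik2 peaks lay from 353 kb upstream of the start to 771 kb downstream, 6 intronic and 5 intergenic. At chr10:50066609-50067137, 278 kb upstream, WT libraries held 8.61 to 15.3 CPM (median 9.33) and Q140 libraries 3.66 to 5.17 (median 4.27), without overlap. It gave a log2 fold change of -1.24 ± 0.19 (SE, adjusted p 2.81e-05). The peak at chr10:49016409-49016809, 76.9 kb past the 3′ end, fell from 3.54 ± 0.585 to 1.66 ± 0.631 CPM (SD, n = 6 each; adjusted p 0.000603). The opposite change stood 650 kb past the gene at chr10:48443763-48444178, which is assigned to Grik2 because no other start is nearer. WT libraries held 0.912 to 2.64 CPM (median 1.54) and Q140 libraries 3.00 to 5.22 (median 4.46), again without overlap. The log2 fold change was 1.41 ± 0.23 (SE, adjusted p 3.9e-05).

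Grik4 and Grik5 code for the high-affinity kainate subunits. Grik4 had 3 higher peaks and 1 lower, all in introns, of 28 tested (14.3%). The adjacent peaks chr9:42709016-42709265 and chr9:42710871-42711371 rose by log2 fold changes of 0.93 (adjusted p 0.00675) and 0.72 (adjusted p 0.00145). Grik5 had 1 called peak, in an intron 8.22 kb from the start (chr7:25063868-25064435). WT libraries held 18.4 to 25.9 CPM (median 21.7) and Q140 libraries 11.1 to 16.5 (median 14.8), without overlap. Fitted, the log2 fold change was -0.60 ± 0.13 (SE, adjusted p 0.00116).

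The NMDA receptor genes had 6 higher and 9 lower peaks of 163 tested, at 5 of 7 members. Grin2a and Grin2b code for the main glutamate-binding subunits of forebrain neurons. Of 75 tested Grin2a peaks, 4 were called (5.33%, against 10.3% of all tested peaks). All 4 were lower, with log2 fold changes of -0.69 to -0.64. The one of smallest p lies in an intron 22.4 kb from the start (chr16:9973220-9973687), where WT libraries held 4.25 to 6.34 CPM (median 5.51) and Q140 libraries 2.84 to 4.01 (median 3.40). The ranges did not overlap (log2 fold change -0.69 ± 0.17 SE, adjusted p 0.00378).

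Grin2b had 3 higher peaks, all in introns 197 to 248 kb into the gene, and 3 lower ones, between -71.5 and 3.84 kb from the start. These were 8.82% of its 68 tested peaks. At chr6:136194737-136195168, 21.4 kb upstream, WT libraries held 4.10 to 6.22 CPM (median 4.75) and Q140 libraries 1.15 to 3.36 (median 2.42). At chr6:135957607-135958062, in an intron, WT libraries held 2.83 to 3.57 CPM (median 3.11) and Q140 libraries 4.40 to 7.79 (median 6.63). Neither pair of ranges overlapped, and the gene therefore carried a lower peak near its start and a higher one deep in its body. The log2 fold changes were -1.09 ± 0.19 (SE, adjusted p 7.07e-05) and 1.04 ± 0.16 (SE, adjusted p 1.04e-05).

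Grin3a and Grin3b code for NMDA subunits that bind glycine and lower calcium permeability. Among 6 Grin3a peaks, 2 were higher and 1 lower. The 2 largest changes were neighbours, at -504 and -525 kb from the start. The peak chr4:50349226-50349425 rose from 0.806 ± 0.368 to 2.23 ± 0.305 CPM (SD, n = 6 each; adjusted p 0.000707), and chr4:50370877-50371108 fell from 2.00 ± 0.725 to 0.774 ± 0.385 CPM (adjusted p 0.00518). Both are faint, and at the second the ranges overlapped. Grin3b had a lower peak 4.33 kb upstream of its start, outside the gene in a stretch annotated as exon (chr10:79966119-79966661), where WT libraries held 8.61 to 13.9 CPM (mean 11.2) and Q140 libraries 5.90 to 7.56 (mean 6.67). These did not overlap (log2 fold change -0.74 ± 0.14 SE, adjusted p 0.000148).

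The metabotropic receptor genes had 6 higher and 16 lower peaks of 173 tested, at Grm3, Grm5, Grm7 and Grm8. Grm7 alone had 6 higher and 9 lower of 65 tested (23.1%). At chr6:110523088-110523840, intergenic and 122 kb upstream of Grm7, WT libraries held 1.47 to 2.70 CPM (median 1.74) and Q140 libraries 4.88 to 6.58 (median 6.08). At chr6:110137136-110137796, 508 kb upstream, WT libraries held 3.95 to 7.33 CPM (median 6.59) and Q140 libraries 9.33 to 17.2 (median 14.4). Both were higher in every Q140 library than in any WT library. The log2 fold changes were 1.63 ± 0.20 (SE, adjusted p 2.33e-07), the largest rise among the members, and 1.16 ± 0.16 (SE, adjusted p 1.94e-06). In a Grm7 intron, chr6:111111198-111111893 went the other way, with 4.25 to 9.69 CPM (median 6.40) in WT and 1.65 to 3.59 (median 2.58) in Q140. The log2 fold change there was -1.30 ± 0.20 (SE, adjusted p 1.58e-05). A faint intronic peak nearer the start, chr6:111025143-111025352, was higher (log2 fold change 0.93, adjusted p 0.0189), but missed the threshold without WT F1 (adjusted p 0.0542) or Q140 F3 (adjusted p 0.0601).

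Grm5, the group I receptor that releases calcium from internal stores and is abundant in projection neurons, had 4 lower peaks and none higher. These were 7.27% of its 55 tested peaks, below the 10.3% of all tested peaks. The one of smallest p covers an exon 220 kb into the gene (chr7:87803628-87804169). WT libraries held 6.89 to 12.8 CPM (median 7.57) and Q140 libraries 3.54 to 6.83 (median 4.74), with a log2 fold change of -0.73 ± 0.18 (SE, adjusted p 0.00482). Grm3, which inhibits cAMP production, had 2 lower peaks, both intronic, of 21 tested (9.52%). At chr5:9631611-9632215 WT libraries held 9.04 to 11.6 CPM (median 9.90) and Q140 libraries a median of 5.03, all below the WT range. This was a log2 fold change of -0.95 ± 0.14 (SE, adjusted p 6.23e-06). At chr5:9574404-9574740 it was -0.96 ± 0.22 (SE, adjusted p 0.00205), and there the ranges overlapped. Grm8 had 1 lower intronic peak (chr6:28084915-28085610), at -0.55 ± 0.18 (SE, adjusted p 0.0339), a call that was lost without any one of 9 libraries (adjusted p up to 0.113). That call was also lost with DESeq2 (adjusted p 0.0543) and without both Q140 F2 and Q140_Msh3KO M1 (adjusted p 0.0528).

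The auxiliary subunit genes had 4 higher and 10 lower peaks of 141 tested. The largest change of all member peaks was at Shisa9 (also CKAMP44), which slows recovery of AMPA receptors from desensitization. The peak chr16:12389147-12390129 is intergenic, 983 bases wide and 118 kb past the 3′ end of the gene. WT libraries held 13.6 to 18.8 CPM (median 15.9) and Q140 libraries 3.43 to 5.67 (median 4.24). Every Q140 library was below every WT library. The log2 fold change was -1.83 ± 0.17 (SE, adjusted p 7.72e-10), a 3.56-fold drop. Shisa9 had 3 further lower peaks and 2 higher ones, and 13.3% of its 45 tested peaks were called.

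Neto1 and Neto2 bind kainate receptors and slow their closing. Neto1 had 2 higher and 3 lower peaks, all intergenic, of 44 tested (11.4%). A peak 10.9 kb before its start (chr18:86383640-86384456) fell from 8.46 ± 0.632 to 4.64 ± 1.10 CPM (SD, n = 6 each; adjusted p 0.000877), without overlap. A faint one 121 kb before it (chr18:86273908-86274197) rose from 1.02 ± 0.685 to 2.48 ± 0.488 CPM (adjusted p 0.00234), although WT F2 at 2.35 lay among the Q140 values. Neto2 had 1 called peak, lower in Q140, annotated as intron but 37.7 kb outside Neto2 (chr8:85738641-85739170). It had a log2 fold change of -0.93 ± 0.20 (SE, adjusted p 0.00127), and the ranges met without crossing (lowest WT 4.66, highest Q140 4.61). Shisa6, another AMPA receptor partner, had 2 lower peaks, the stronger at -83.8 kb (chr11:66609667-66610161; log2 fold change -0.85, adjusted p 0.000301).

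**Figure D3:**
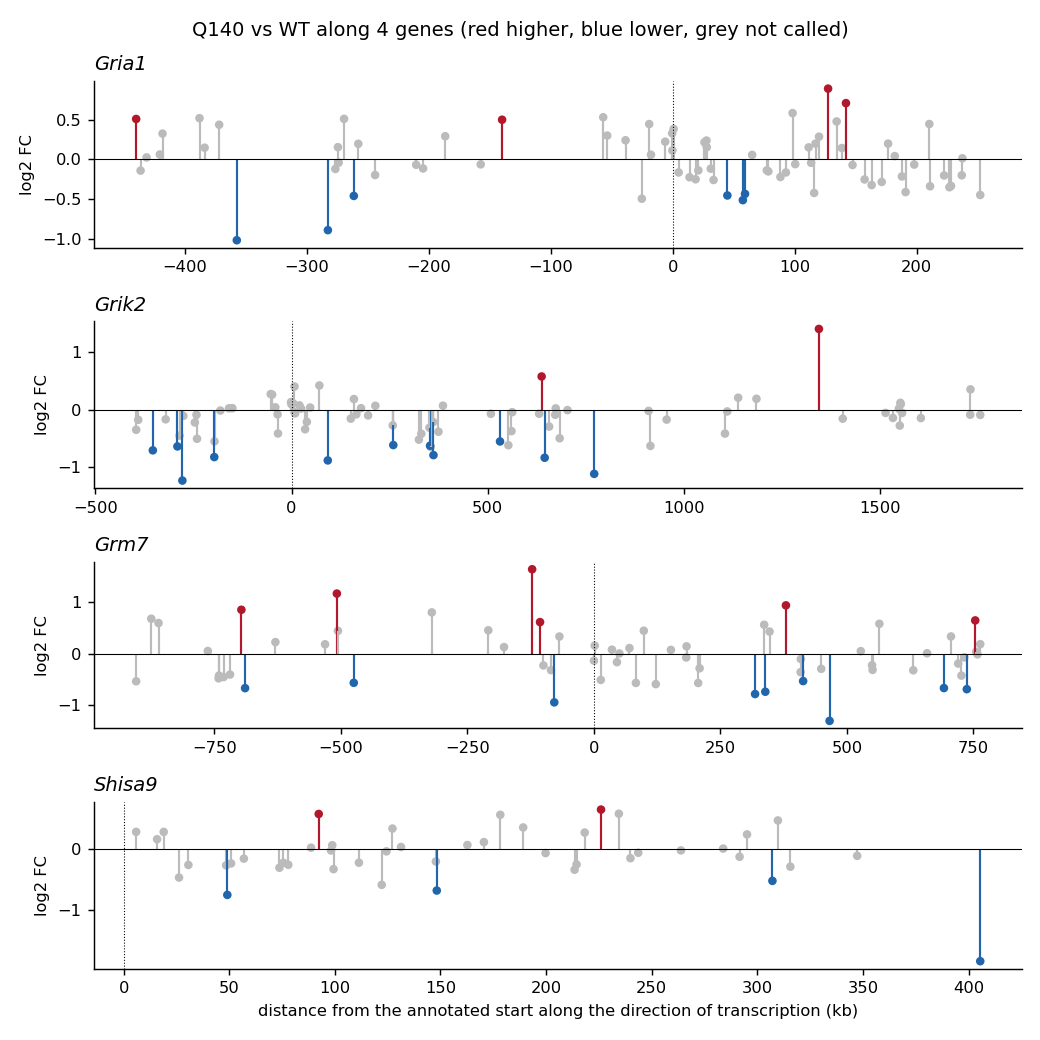
Log2 fold change of accessibility in Q140 against WT (y axis) along Gria1, Grik2, Grm7 and Shisa9, by distance from the annotated start in kb (x axis, positive in the direction of transcription). Each stem is a tested peak, red if called higher, blue if called lower and grey otherwise. Peaks at the dotted start line are grey, and the Shisa9 peak at 406 kb falls furthest, to -1.83.

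Counts were also summed over all peaks of each gene and tested as 20851 genes. Of the 30 members, 7 passed in Q140 against WT, 1 higher and 6 lower, where 12.9% of all genes passed (1034 higher and 1656 lower). Members had a median of 12 tested peaks and all genes 4, and the part of this difference in the count was not tested. Grin3b fell from 29.7 ± 2.41 to 22.8 ± 1.81 CPM (SD, n = 6 each; log2 fold change -0.38, adjusted p 0.00114). Of its 4 tested peaks 3 had values below 0, and the only called one (-0.74) lies outside the gene. The Grin3b start peak had a log2 fold change of 0.07, so the sum is not separate from the called peak. The Neto2 sum fell from 21.5 ± 2.39 to 14.8 ± 2.36 CPM (-0.54, adjusted p 0.00144), and all 7 of its tested peaks had values below 0. Only 2 of these 7 peaks overlap Neto2, so the sum is mostly of peaks outside the gene. Gria3 fell from 110 ± 14.2 to 89.0 ± 9.26 CPM (-0.31, adjusted p 0.00187), with a log2 fold change of -0.28 (adjusted p 0.00847) without Q140 F2. The WT and Q140 ranges of Gria3 overlapped (94.2 to 128 and 79.2 to 101), whereas those of Neto2 (18.8 to 25.5 and 11.2 to 17.6) and Grin3b (26.2 to 33.3 and 20.6 to 25.7) did not.

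Grm5 (-0.19, adjusted p 0.0105) and Grm3 (-0.22, adjusted p 0.0156) also fell as sums, and both missed the threshold with scaling by total counts (adjusted p 0.0743 and 0.0552). Grm3 missed it without WT F3 as well (adjusted p 0.0562). Shisa9 (-0.14, adjusted p 0.0358) was lost in 12 of its 31 alternatives. The Shisa9 sum includes the peak 118 kb past the gene (log2 fold change -1.83), and of its 45 tested peaks 18 had values above 0 and 27 below. Cnih3, a cornichon that aids export of AMPA receptors, rose from 51.5 ± 4.00 to 62.7 ± 4.14 CPM (SD, n = 6 each; 0.28, adjusted p 0.00427). None of its 19 peaks was called singly, but 17 of the 19 had values above 0, and the WT (45.9 to 56.3) and Q140 (57.8 to 68.5) ranges of its sum did not overlap. Grm7 and Gria1, which have called peaks in both directions, had sums near no change (-0.04 and -0.00). Grik5 (-0.21, adjusted p 0.0519) and Grin2d (0.63, adjusted p 0.0507) narrowly missed the threshold. The Grin2d sum holds only its single peak, the start peak given above.

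**Figure D4:**
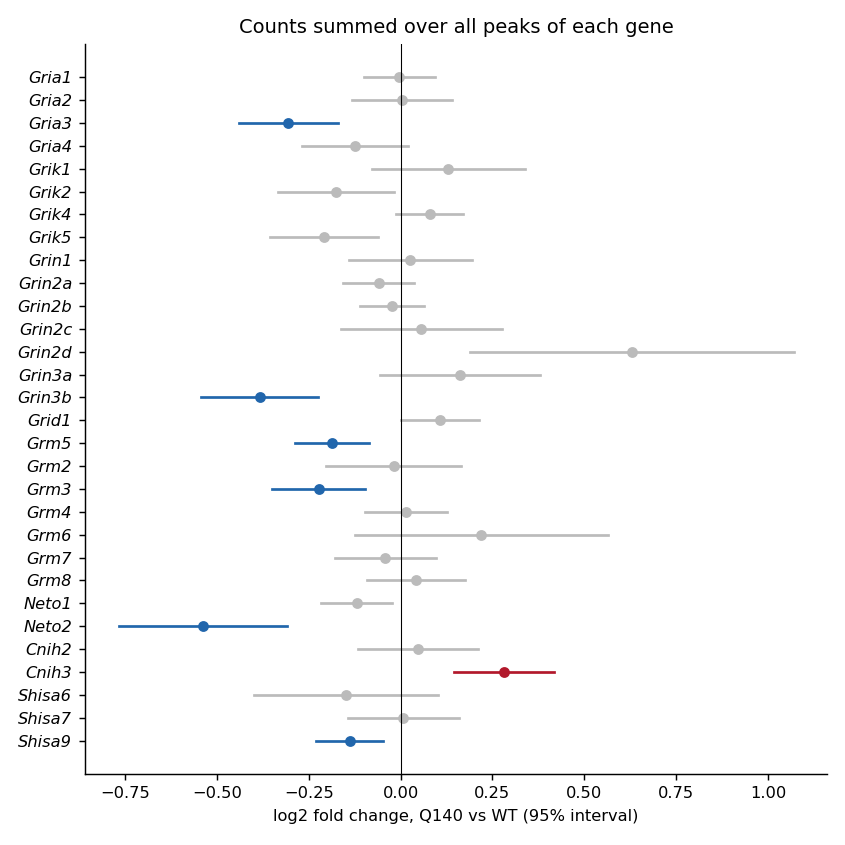
Log2 fold change (x axis) in Q140 against WT of counts summed over all peaks of each of the 30 genes (y axis), with lines for 95% intervals (6 libraries per genotype). Blue marks the 6 sums called lower, red the sum of Cnih3 called higher, and grey the 23 that were not called.

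Loss of Msh3 on its own left no detectable change at the members. In Msh3KO against WT 0 of the 775 peaks passed by edgeR, 24 had an unadjusted p under 0.05, and DESeq2 also called 0. Over all 146155 peaks 0.0130% passed, and 4875 had an unadjusted p under 0.05. The Grin2b peak 21.4 kb upstream held 3.32 to 5.68 CPM in Msh3KO (median 4.64), overlapping the WT range of 4.10 to 6.22. The Grik2 peak 650 kb past the gene held 0.911 to 3.32 CPM (median 1.24), against 0.912 to 2.64 in WT.

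With the Q140 allele present, 3 of the 775 member peaks passed on loss of Msh3 (Q140_Msh3KO against Q140). This is 0.387%, against 0.529% of all peaks, so the count is not above the background. All 3 were named above as changed in Q140 against WT, and each moved back towards WT. The comparisons share the Q140 libraries, so the direction is not independent of those results. At the Grik2 peak 650 kb past the gene, Q140_Msh3KO libraries held 1.58 to 2.60 CPM (median 1.71), below all Q140 libraries (3.00 to 5.22). Fitted, the log2 fold change was -1.14 ± 0.23 (SE, adjusted p 0.00699). At the Grik2 peak 278 kb upstream, Q140_Msh3KO libraries held 5.56 to 11.1 CPM (median 8.01), above the Q140 values of 3.66 to 5.17 (0.89 ± 0.20 SE, adjusted p 0.0239). At the Grin2b peak 21.4 kb upstream they held 3.40 to 5.40 CPM (median 4.35), against 1.15 to 3.36 in Q140 (0.84 ± 0.19 SE, adjusted p 0.0264). The ranges were separate at all 3, but the last 2 calls were lost without any one of 5 and 7 libraries (adjusted p up to 0.0886 and 0.104), and the Grik2 upstream peak without both Q140 F2 and Q140_Msh3KO M1 (adjusted p 0.138). The summed promoter peaks of some marker sets also differed in mean between these genotypes. Cortical glutamatergic markers (2 promoter peaks) held 8.16 CPM in Q140 (6.95 to 9.19) and 6.17 in Q140_Msh3KO (3.93 to 8.79). Interneuron markers held 16.7 (13.2 to 21.4) and 13.5 (9.03 to 19.2), and endothelial markers 2.51 (1.74 to 3.07) and 1.64 (1.08 to 2.32). Projection neuron markers held 279 in both. The ranges overlapped in each set and no marker promoter was called. The part of the marker values in these results was not tested. By gene sums no member passed (0.643% of all genes did). The 4 with an unadjusted p under 0.05 were Grm3 (0.19), Gria3 (0.19), Neto2 (0.31) and Grm5 (0.12), all with positive log2 values.

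**Figure D5:**
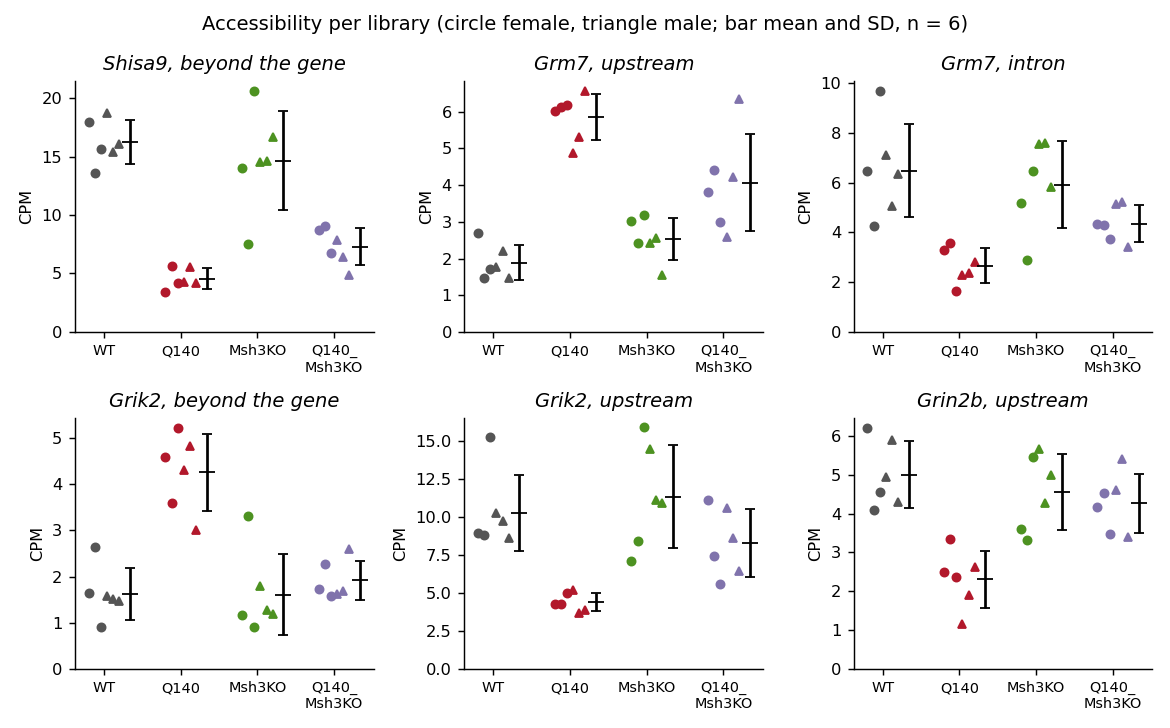
Accessibility in CPM (y axis) of 6 member peaks in each library of the 4 genotypes (x axis), with circles for females, triangles for males and bars for the mean and SD (n = 6). Q140 libraries are separate from WT libraries in all 6 panels, and Q140_Msh3KO libraries are separate from Q140 libraries in the Grik2 and Grin2b panels.

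The Q140 effect without Msh3 was measured in other animals, as Q140_Msh3KO against Msh3KO. Of all peaks 0.116% passed, and 1 member did (0.129%). That was the Shisa9 peak past the gene, with 7.53 to 20.6 CPM (median 14.6) in Msh3KO and 4.87 to 9.08 (median 7.29) in Q140_Msh3KO. The ranges overlapped through Msh3KO F2, at 7.53. The log2 fold change was -1.05 ± 0.16 (SE, adjusted p 0.00152). The 29 peaks called higher with Msh3 had a median log2 fold change of 0.71 there and 0.29 without Msh3, and 27 of the 29 kept their sign. The 63 lower peaks had medians of -0.68 and -0.24, and 55 kept their sign. The sign was kept by 93.1% of the higher and 87.3% of the lower members, against 88.1% and 92.3% of all called peaks. Because peaks were chosen on the first value, the drop in the medians is partly set by the choice. The medians over all called peaks went from 0.74 to 0.25 for the higher and from -0.68 to -0.26 for the lower. The interaction test, which compares both Q140 effects directly, had an unadjusted p under 0.05 at 72 of 775 members and 10696 of 146155 peaks. After adjustment it called 0 members (also 0 by DESeq2) and 0.0226% of all peaks. A smaller Q140 effect without Msh3 was therefore not shown for any single member peak.

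Against WT, Q140_Msh3KO animals differed at 4 member peaks (0.516%), near the 0.525% of all peaks that passed. The Shisa9 peak past the gene was again lower (log2 fold change -1.16, adjusted p 7.36e-05). The 2 upstream Grm7 peaks were higher, by 1.09 (adjusted p 0.00661) and 0.80 (adjusted p 0.0124), and missed the threshold without Q140_Msh3KO M3 (adjusted p 0.0641 and 0.0603). At the nearer of these, 122 kb upstream, Q140_Msh3KO libraries held 2.58 to 6.34 CPM (median 4.02) and overlapped the WT range only at its top (2.70). An intronic Shisa9 peak, chr16:12209839-12210386, was higher by 0.71 (adjusted p 0.041), and was lost without any one of 9 libraries. Without Q140_Msh3KO M3 the count of called members was 1, without Q140_Msh3KO M1 it was 8 and without Q140_Msh3KO F2 it was 7.

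Sex was a term of every fit. Of the 746 tested member peaks outside the X chromosome, 1 was called, in the body of Gria1 (starting at chromosome 11, 57176000). It was higher in males, at 3.64 ± 0.812 CPM against 1.57 ± 0.555 in females (SD, n = 12 each; log2 fold change 1.24 ± 0.16 SE, adjusted p 1.75e-06 by edgeR). Of all 143052 tested autosomal peaks, 75 were called higher and 4 lower in males. With the X and Y chromosomes included, 0.169% of all peaks passed. Gria3, on the X chromosome, had 0 of 29 peaks called between the sexes (5 at an unadjusted p under 0.05). Of all 2976 tested X peaks, 0 were called higher and 137 lower in males, and 1270 had an unadjusted p under 0.05. The median log2 fold change of males against females was -0.17 over Gria3 peaks and -0.23 over all X peaks.

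The other genes of the glutamate synapse on a list of 42 (scaffolds, transporters, TARPs and further receptors) had 722 tested peaks, 27 higher and 45 lower in Q140 against WT, or 9.97% (10.3% of all peaks), with a median of -0.05. Called peaks stood at 21 of the 41 list genes with peaks, and at 36.5% of all genes. Among all genes the share rose with the number of tested peaks (25.2% with 1 to 9, 75.8% with 10 to 29, 96.8% with 30 or more). The list was not split in this way, and the counts below stand without the number tested at each gene. Dlg2, a scaffold of the postsynaptic density, had 12 lower peaks and 1 higher. Gsg1l, an AMPA receptor partner, had 7 lower and Cacng3, a TARP, 5 lower, with none higher. Shank2, a scaffold, had 7 higher and none lower, and Cbln2, a synaptic organizer, 5 higher and 2 lower. In Q140_Msh3KO against Q140 the list had 3 higher and 4 lower peaks, or 0.970%, where 0.529% of all peaks passed.

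Total counts per library ran from 4372251 to 11736557, with a median of 28 counts per tested peak and library. The share of counts in member peaks was 0.402% ± 0.0122 for WT libraries and 0.393% ± 0.00989 for Q140 libraries (SD, n = 6 each). It was 0.399% for both genotypes that lack Msh3. In Q140_Msh3KO M1 the top 10 peaks held 12.7% of all counts, against 2.52 to 6.82% elsewhere, and its member share was the lowest at 0.355%. Accessibility did not check the labels of the targeted genes: 0 of 3 Htt peaks and 0 of 6 Msh3 peaks were called in Q140 or Msh3KO against WT. No member peak lay within 20 Mb of Htt or on chromosome 13, which carries Msh3. Promoter peaks were present for 10 of 12 projection neuron markers and summed to 295 CPM in WT (range 260 to 357) and 279 in Q140 (241 to 319). Markers of interneurons summed to 15.6 and 16.7 CPM, of cortical glutamatergic neurons (2 of 7 genes with a promoter peak) to 6.22 (5.47 to 7.59) and 8.16 (6.95 to 9.19), of oligodendrocytes to 12.1 and 12.4, of astrocytes to 2.64 and 2.87, of microglia to 3.38 and 3.49, and of endothelial cells to 2.66 and 2.51. The precursor markers Pdgfra and Cspg4 had no promoter peak. No marker promoter was called, and the part of the cortical values in the member results was not tested. The cortical sum was 6.45 CPM in Msh3KO (5.04 to 9.74) and 6.17 in Q140_Msh3KO (3.93 to 8.79).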

How the data were processed

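ATAC-seq libraries of sorted NeuN-positive nuclei were analysed. The authors deposited raw read counts for 147020 peaks in 24 libraries, with position, distance to the nearest start, class and gene symbol per peak, per the file headers. A symbol was missing for 281 peaks. BWA, SAMtools, Picard, MACS2, featureCounts and build GRCm38 are named in the submitters' processing notes. The sources used here do not give their settings, duplicate handling or any Tn5 shift. One combined peak set served all libraries, per the file name. Counts of 60 same-genotype pairs differed beyond sampling noise (chi-square per peak 1.34 to 8.94).

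Peaks were tested with edgeR 4.0.16 (R 4.3.3; TMM, filterByExpr minimum count 10, robust quasi-likelihood fit, genotype and sex, all libraries), with Benjamini-Hochberg adjustment over 146155 peaks at 0.05. SEs come from the fold change and F. The same test was applied to counts summed per symbol. The script was tested on simulated counts. Groups came from the sample titles.

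Named peaks were the 10 largest called changes per direction in Q140 against WT, the called peak of smallest p of each other member, the 5 largest per direction in other comparisons, and every start peak. Start peaks of members lacking an annotated promoter peak, the sex comparison and the Gria1 sex peak were added after values were seen. The members and lists were chosen with earlier results of these data known. Alternatives were DESeq2 1.42.0, total-count scaling, other count filters, a replicate block, fewer groups and left-out libraries.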

Additional observations from a re-analysis of the deposited data

Results flagged for a closer look

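In 236 groups of 6 libraries (59 peaks in 4 genotypes), 15 had a highest or lowest library whose gap to its nearest neighbour, as a share of the group's range, exceeded Dixon's critical value. About 1 in 20 groups is marked by chance. At the peak 650 kb past Grik2, Msh3KO F2 was the highest of its genotype at 3.32 CPM, where the other libraries held 0.911 to 1.79. At the peak 508 kb upstream of Grm7, Msh3KO F2 was the lowest of its genotype at 4.65 CPM, where the other libraries held 6.65 to 7.46. At the peak 121 kb before Neto1, WT F2 was the highest of its genotype at 2.35 CPM, where the other libraries held 0.352 to 0.987. At the peak 121 kb before Neto1, Q140_Msh3KO M3 was the highest of its genotype at 3.4 CPM, where the other libraries held 1.33 to 1.79. At the peak 76.9 kb past Grik2, Q140_Msh3KO M2 was the highest of its genotype at 2.7 CPM, where the other libraries held 1.9 to 2.15. At the peak 278 kb upstream of Grik2, WT F3 was the highest of its genotype at 15.3 CPM, where the other libraries held 8.61 to 10.3. At the peak upstream of Gria3, Msh3KO F3 was the highest of its genotype at 9.45 CPM, where the other libraries held 5.00 to 5.98. At the peak in a Grm5 exon, WT M1 was the highest of its genotype at 12.8 CPM, where the other libraries held 6.89 to 7.75. At the peak 10.9 kb before Neto1, Q140 M2 was the lowest of its genotype at 2.48 CPM, where the other libraries held 4.75 to 5.43. At the peak at the Gria3 start, Q140 F3 was the highest of its genotype at 17.2 CPM, where the other libraries held 11.1 to 13. At the peak at the Grin1 start, WT F3 was the highest of its genotype at 62 CPM, where the other libraries held 41.7 to 47.1. At the peak at the Grin2c start, Msh3KO F2 was the highest of its genotype at 6.42 CPM, where the other libraries held 4.6 to 5.2. At the peak at the Grid1 start, Q140_Msh3KO F3 was the highest of its genotype at 37.2 CPM, where the other libraries held 20 to 23.1. At the peak at the Grm6 start, Q140_Msh3KO M1 was the highest of its genotype at 3.12 CPM, where the other libraries held 0.521 to 1.24. At the peak at the Grm7 start, Q140_Msh3KO M1 was the lowest of its genotype at 29.3 CPM, where the other libraries held 39.5 to 44.1. Msh3KO F2, named 3 times, had the fewest counts (4372251).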

How the results depend on the processing

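Of 48 named results (peaks, and the 7 gene sums), 36 kept direction and call in every alternative that gave a value, 12 missed the threshold in 1 or more, and 0 changed direction. The stricter minimum of 30 counts removed 9 of them. In Q140 against WT the count of called members ran from 71 (without WT F3) to 102 (without Msh3KO F2) when single libraries were left out, and the gene sums from 5 to 9. The share of called members that were lower ran from 52.1% (without WT F3) to 76.7% (without Q140 F2), and was 58.5% with total-count scaling. Over all called peaks the share in these 3 settings was 49.4%, 66.8% and 51.6%. Both Msh3KO against WT and the interaction stayed at 0 in every left-out fit. Q140_Msh3KO against Q140 gave 6 calls with the stricter minimum, 5 with only these groups in the fit, and 1 to 5 without single libraries (1 without Q140 M2 or Q140_Msh3KO F1, M1 or M2, and 5 without Msh3KO F2 or Q140_Msh3KO F3 or M3). Q140_Msh3KO against Msh3KO gave 2 with the stricter minimum, 2 without both Q140 F2 and Q140_Msh3KO M1, and 1 to 2 without single libraries (2 without Q140_Msh3KO M1). Q140_Msh3KO against WT gave 9 and 7 under the first 2 settings, and 1 to 8 without single libraries. Gene sums in Q140_Msh3KO against Q140 ran from 0 to 2, with 2 without Q140_Msh3KO F3. The cause of these shifts was not tested. A replicate block on the library numbers gave 95 calls in Q140 against WT (29 higher) and 6 in Q140_Msh3KO against WT, and ended the call of none of the named results. The interaction was not run with only the compared groups, since it uses all 4. Numbers do not pair animals by the labels, and same-numbered libraries correlated at -0.44 to 0.45. Counts per peak limit the faint peaks most.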
